A study of Mus musculus with 2 samples.

Results

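Myoglobin, the globins read in blood and the enzymes that make heme were followed in the mouse heart through 10 genes of the 55536 mouse genes in the deposited gene tables. The genes were chosen by symbol and matched to the tables by gene identifier, and all 10 were found. They were divided by whether they are known mainly from red cells. The muscle members, a name used here for genes that are not particular to red cells, were Mb, Cygb, Alas1 and Fech. The red cell members were Hba-a1, Hba-a2, Hbb-bs, Hbb-bt, Alas2 and Slc4a1. The samples were hearts of 2 adult male B6CASTF1/J mice aged 8 to 10 months, first-generation offspring of C57BL/6J and CAST parents obtained from The Jackson Laboratory. No treatment is named in the labels, and both animals carry the same F1 genotype. Each heart gave 1 library of total RNA, made from 300 ng with ribosomal RNA reduced, strand kept and ERCC spike-in RNA added. Replicate 1 is animal 2 and replicate 2 is animal 4, although the labels give both the same donor entry. There is 1 group, so each gene is described by its level and by how far the 2 animals differed.

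Globins are small proteins that hold heme, an iron-containing ring that binds oxygen. Myoglobin stores oxygen and eases its diffusion in heart and oxidative skeletal muscle, whereas hemoglobin, a tetramer of alpha and beta chains, carries oxygen in red cells. Heme is built by a chain of enzymes that starts and ends in mitochondria. The opening step is catalysed by ALAS1 in most tissues and by ALAS2 in erythroid cells, and ferrochelatase, the product of Fech, inserts the iron at the end. Young red cells (reticulocytes) still hold globin mRNA, so blood left in an organ adds such RNA to its libraries.

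The hemoglobin genes come as near-identical pairs, and the sequences that separate them set how well their reads can be told apart. The coding sequences of Hba-a1 and Hba-a2, 426 bases each, differed at 1 base, C381T, and those of Hbb-bs and Hbb-bt, 441 bases each, at 1 base, C417T. Positions are counted from 1 at the start codon, with the base of the gene named first given first. Neither substitution changed the encoded residue. The stretches around these bases follow in the coding direction, from the annotated transcripts on mm10, with the differing base in capitals. They lie at chr11:32284313-32284373 and chr11:32297130-32297190 on the plus strand and at chr7:103826668-103826722 and chr7:103812659-103812713 on the minus strand.
Hba-a1: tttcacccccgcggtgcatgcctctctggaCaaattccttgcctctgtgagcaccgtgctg
Hba-a2: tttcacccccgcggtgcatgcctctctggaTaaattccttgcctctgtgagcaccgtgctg
Hbb-bs: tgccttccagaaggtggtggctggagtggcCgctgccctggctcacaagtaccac
Hbb-bt: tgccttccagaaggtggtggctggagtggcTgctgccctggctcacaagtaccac
Of the 31-base words in all annotated transcripts of Hba-a2, 92.6% also occur in Hba-a1, while 75.4% of those of Hba-a1 occur in Hba-a2. Between the beta genes the shared portion was 54.4% of the words of Hbb-bs and 59.4% of those of Hbb-bt. No word of Mb, Cygb, Alas1, Alas2 or Slc4a1 occurred in another gene on the same strand. For Fech 5.91% of the words did.

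Upstream sequence of the members was also described, and a link between it and the ratios between the animals was not tested. RefSeq promoter windows on GRCm38.p6, the assembly that mm10 names, were present for 7 of the 10 members and were not used for Cygb, Fech or Slc4a1. In the 250 bases before each RefSeq start, both strands were searched for 4 kinds of word. The first was the GATA factor motif, here the letters GATA with A or T directly before them and A or G directly after them. The others were the CACCC word bound by Krüppel-like factors, the CCAAT box of many promoters and TATAA, the core of the TATA box. A GATA word was present once each in the windows of Hba-a1, Hba-a2, Hbb-bs and Alas2, and in 26.5% of all 32851 windows of the table. It was not found in those of Hbb-bt, Alas1 or Mb. TATAA was present for the 4 hemoglobin genes and Alas2 (22.8% of all windows), where the 2 matches of Alas2 overlap each other. CCAAT was present for the 4 hemoglobin genes and Mb (33.8%), and CACCC in at least 1 window of all 7 genes (52.0%). Mb has 3 windows and Alas1 has 2, and the Mb window before Mb-202 held no CACCC. The shares over the table are per window. The bases compared upstream of Hba-a1 and Hba-a2, set 3 bases apart, were identical at 247 of 247 positions, so only Hba-a2 is shown. The stretches below stop before any annotated exon, and capitals mark the searched words. Words lying nearer to a start, inside an annotated exon, were counted but are not shown.
Hba-a2, chr11:32296242-32296488, plus strand: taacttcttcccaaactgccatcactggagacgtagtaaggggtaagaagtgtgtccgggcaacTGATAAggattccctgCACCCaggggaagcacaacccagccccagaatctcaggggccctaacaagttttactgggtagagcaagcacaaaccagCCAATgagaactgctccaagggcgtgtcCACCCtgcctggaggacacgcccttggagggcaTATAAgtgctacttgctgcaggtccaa
Hbb-bs, chr7:103828097-103828178, minus strand: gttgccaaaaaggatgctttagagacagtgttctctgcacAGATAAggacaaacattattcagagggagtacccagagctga
Hbb-bt, chr7:103813997-103814173, minus strand: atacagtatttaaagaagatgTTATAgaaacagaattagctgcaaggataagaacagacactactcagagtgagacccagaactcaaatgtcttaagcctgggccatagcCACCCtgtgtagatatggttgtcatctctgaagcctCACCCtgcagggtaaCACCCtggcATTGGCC
Alas2, chrX:150547167-150547374, plus strand: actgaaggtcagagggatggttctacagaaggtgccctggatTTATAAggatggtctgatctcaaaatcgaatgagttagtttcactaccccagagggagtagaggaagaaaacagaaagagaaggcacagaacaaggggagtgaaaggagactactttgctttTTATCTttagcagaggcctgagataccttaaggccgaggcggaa
Mb, chr15:77022788-77023037, minus strand: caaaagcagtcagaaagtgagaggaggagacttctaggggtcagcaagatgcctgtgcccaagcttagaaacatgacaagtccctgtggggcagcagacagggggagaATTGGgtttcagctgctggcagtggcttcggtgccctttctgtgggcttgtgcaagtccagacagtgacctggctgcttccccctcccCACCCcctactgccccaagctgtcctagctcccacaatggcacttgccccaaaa
The last of these precedes the start of Mb-203, 1 of several myoglobin transcripts described further on. A match is a run of letters, and binding was not measured.

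The libraries held 42047303 and 39979844 expected counts on mouse genes, 99.8% of all counts in each, and 11607 genes reached 1 TPM in both. TPM is a level corrected for transcript length that adds up to the same total in every library. RNA of the mitochondrial genome took 36.3 and 36.5% of TPM and spike-in RNA 0.203 and 0.213% of counts. All 8 heart muscle markers passed 1 TPM in both libraries, led by Myl2 (7659 and 8307 TPM in replicates 1 and 2), Myh6 (6325 and 6951), Actc1 (4742 and 5286) and Tnni3 (3289 and 3586). The highest skeletal muscle markers stayed low, with Tnnt3 at 2.64 and 2.51 TPM, Atp2a1 at 2.37 and 2.61, Mylpf at 2.17 and 2.36 and Myh4 at 1.94 and 1.98. Fibroblast and mural genes (Gsn, Dcn, Rgs5 and Col3a1 the highest) and endothelial genes (Fabp4, Aqp1, Egfl7 and Cdh5 the highest) passed 1 TPM for 10 of 10 and 7 of 7 markers. No gene of the heart muscle, skeletal muscle, fibroblast or endothelial lists differed 2-fold or 1.5-fold between the animals by the rule given further on. Over all tested genes 2.52% passed 1.5-fold toward replicate 1 and 1.01% toward replicate 2. Only 2 of the 7 skeletal muscle markers had enough counts for the rule. All 8 heart muscle markers were slightly higher in replicate 2 (median log2 ratio 0.085), as were 5908 of all 10960 tested genes. With 2 libraries the smallest two-sided exact p is 0.5, so no p is given. In what follows ± is the SD over both libraries (n = 2).

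Myoglobin was the highest of the 10 genes and the hemoglobins came next. By mean level per length the order was Mb (7736 ± 213 TPM), Hbb-bs (3251 ± 1384), Hba-a1 (2996 ± 1240), Hba-a2 (2420 ± 1001), Hbb-bt (289 ± 138), Alas1 (148 ± 7.33), Fech (80.9 ± 4.91), Alas2 (34.2 ± 13.9), Cygb (16.7 ± 2.96) and Slc4a1 (1.01 ± 0.778). The ranges of Hbb-bs, Hba-a1 and Hba-a2 overlapped between the animals, although by TPM these 3 stood in the same order within each library. In the second quantification Hba-a1 stood above Hbb-bs in both libraries. All other neighbours in that order had ranges that did not overlap. Relative to their means, the muscle members varied less between the animals than the red cell members, as the plot of levels shows.

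**Figure D1:**
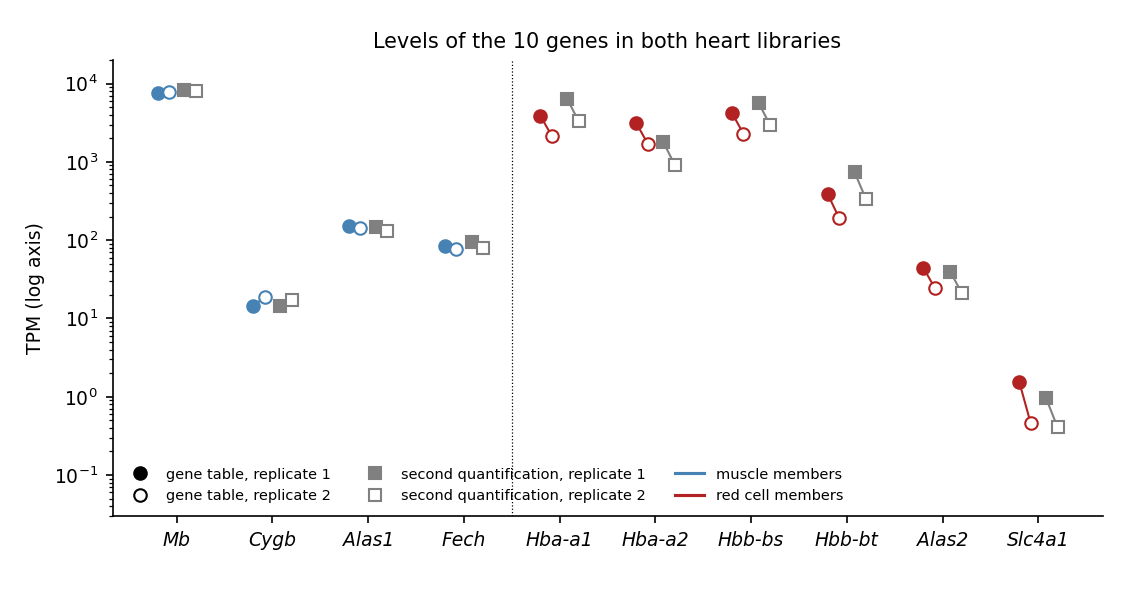
Level of each gene in TPM (vertical log axis) in replicate 1 (filled) and replicate 2 (open). Circles show the deposited gene tables (blue muscle members, red red cell members) and grey squares the second quantification, with a line joining the 2 animals. All 6 red cell members lie lower in replicate 2, while Mb stays between 7586 and 8283 TPM in all 4 values.

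Mb (ENSMUSG00000018893.15, mm10 chromosome 15, 77015487 to 77050670, minus strand) was read at 227005 expected counts in replicate 1 and 222701 in replicate 2. Its level was 7586 and 7887 TPM, and 8283 and 8064 TPM in the second quantification, a separate transcript table deposited for each library. That made it rank 2 of all nuclear protein-coding genes by mean TPM. After scaling for library size the log2 ratio of replicate 2 over replicate 1 was 0.03, with a counting interval (0.1% outside, explained further on) of 0.01 to 0.04. By scaled counts the 2 animals thus stood within 2% of each other in myoglobin (1.02-fold). By TPM replicate 2 was the higher, and by TPM of the second quantification replicate 1 was.

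Several annotated transcripts shared the myoglobin reads, and all 6 are annotated as protein-coding. Mb-202 starts at 77050670, 27883 bases upstream of the start of Mb-203, and held 39.6 and 41.3% of the gene's TPM in replicates 1 and 2. Mb-203, with the same 462 coding bases, held 23.4 and 21.8%. Mb-206, annotated with a shorter coding sequence of 297 bases, held 37.0 and 36.8%. The shares thus agreed between animals within 2 percentage points. The second quantification also gave Mb-202 the most, 42.0 and 43.6%, but put Mb-206 at 24.5 and 23.7% and gave 13.6 and 13.3% to Mb-205, which starts 101 bases downstream of Mb-202 and was listed at 0 in the deposited shares. The transcripts with an upstream start together held 39.6 and 41.3% by the deposited shares and 55.6 and 56.9% by the second quantification. Only 12.8% of the 31-base words of Mb-202, 15.6% of those of Mb-203 and 10.2% of those of Mb-206 are absent from the gene's other transcripts. Annotated exons of Mb overlap exons of Apol6 and Gm49540 on the opposite strand. Exons of Cygb, Alas1 and Alas2 also overlap exons of other genes on the opposite strand. The library kit kept strand, but the strand setting of the counting is not given in the sources used here.

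**Figure D2:**
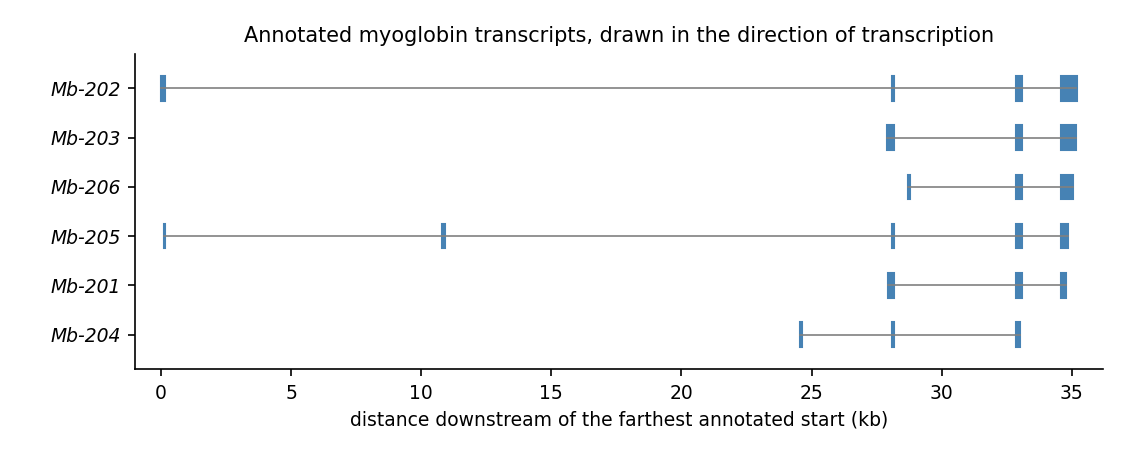
Exons (blocks) of the 6 annotated myoglobin transcripts, drawn to scale against the distance in kilobases downstream of the farthest annotated start. Mb-202 and Mb-205 begin at the left edge, and Mb-203 begins 27883 bases further on.

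Cygb, encoding cytoglobin, a globin of fibroblasts and other connective tissue cells, was far below myoglobin (ENSMUSG00000020810.5, chromosome 11, 116645595 to 116654313, minus strand). It was read at 1131 and 1374 counts, or 14.6 and 18.8 TPM, and the second quantification gave 14.5 and 17.4. Replicate 2 was higher by a log2 ratio of 0.33 (0.14 to 0.53), or 1.26-fold, which was below the 1.5-fold rule. Mb exceeded Cygb by 521-fold in replicate 1 and 420-fold in replicate 2 on the TPM scale. The other globin genes were close to silent, and 0 of 9 reached 1 TPM in both libraries. Ngb, the neuronal globin, had 0 and 2 counts, and Adgb, a large globin of testis, 5 and 4. The embryonic genes Hba-x and Hbb-bh1 and the related Hbb-bh2 and Hbb-bh0 had 0 counts in both libraries, and the embryonic Hbb-y had 1 and 0. A count of 0 allows up to 3 counts in a library. The theta globins Hbq1a (5.16 and 5.31 expected counts) and Hbq1b (9.84 and 5.69) stayed below 1 TPM in the gene tables.

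Adult hemoglobin RNA was abundant in both hearts and lower in replicate 2. The alpha genes are Hba-a1 (ENSMUSG00000069919.7, chromosome 11, 32283511 to 32284465, plus strand) and Hba-a2 (ENSMUSG00000069917.7, chromosome 11, 32296489 to 32297298, plus strand). Hba-a1 stood at 3872 TPM in replicate 1 and 2119 in replicate 2, and Hba-a2 at 3128 and 1712. The beta genes are Hbb-bs (ENSMUSG00000052305.6, chromosome 7, 103826534 to 103828096, minus strand) and Hbb-bt (ENSMUSG00000073940.3, chromosome 7, 103812524 to 103813996, minus strand). Hbb-bs stood at 4229 and 2272 TPM, and Hbb-bt at 387 and 191. Replicate 1 was the higher for all 4 genes. In expected counts the values were 77717.5 and 40258.3 for Hba-a1, 49406.5 and 25514.7 for Hba-a2, 77308.5 and 39300.7 for Hbb-bs, and 8121 and 3787 for Hbb-bt.

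The balance among the hemoglobin genes was nearly the same in the 2 animals. Summed alpha RNA exceeded summed beta RNA by 1.52-fold in replicate 1 and 1.56-fold in replicate 2 by TPM, and by 1.28-fold and 1.29-fold in the second quantification. Hbb-bs exceeded Hbb-bt by 10.9-fold and 11.9-fold by TPM and by 7.58-fold and 8.77-fold in the second quantification. Hba-a1 exceeded Hba-a2 by 1.24-fold in both animals by TPM, but by 3.48-fold and 3.55-fold in the second quantification. There Hba-a1 was at 6340 and 3280 TPM and Hba-a2 at 1820 and 925, so the division between these copies followed the quantification. Most words of Hba-a2 also occur in Hba-a1. The agreement of their ratio between the animals is therefore not separate evidence on each copy. The second quantification put Hbb-bs at 5620 and 2920 TPM and Hbb-bt at 742 and 333. Hba-a1-201 held 89.2 and 90.0% of its gene and Hbb-bs-201 99.0 and 99.6% of its own, with Hbb-bs-201 at 83.3 and 80.9% in the second quantification. How well reads of the CAST alleles fit the mm10 sequence was not tested.

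Alas2 and Slc4a1, a heme enzyme and a membrane protein of red cells, also stood lower in replicate 2. Alas2 (ENSMUSG00000025270.13, chromosome X, 150547375 to 150570638, plus strand) had 2688 and 1335 counts, or 44.1 and 24.4 TPM, with 39.8 and 21.1 TPM in the second quantification. Its longer coding transcript Alas2-201 held 68.6 and 63.2% of the gene, and 86.9 and 77.2% in the second quantification. Summed hemoglobin TPM exceeded Alas2 by 264-fold in replicate 1 and 258-fold in replicate 2. Slc4a1, the band 3 anion exchanger of the red cell membrane (ENSMUSG00000006574.15, chromosome 11, 102348824 to 102366203, minus strand), had 154 counts in replicate 1 and 22 in replicate 2, or 1.56 and 0.460 TPM, with 0.964 and 0.408 TPM in the second quantification. It was the lowest and the least evenly read of the 10 genes, and at this depth its transcript shares cannot be read.

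Between the animals, a gene was counted as differing when its summed count was 200 or more, the ratio after TMM scaling (trimmed mean of M values) was at least 2-fold, and its exact Clopper-Pearson interval, set to leave 0.1% outside, excluded 1. These intervals cover counting error only, since reads carry no molecular identifiers and there is 1 library per animal. Of 10960 genes with enough counts, 94 (0.858%) were so called toward replicate 1 and 24 (0.219%) toward replicate 2. Of the 10 members 9 had enough counts, all but Slc4a1. Only Hbb-bt was called, at 2.07-fold (1.937 to 2.206) toward replicate 1, and no member was called toward replicate 2. At a threshold of 1.5-fold, which 2.52% of genes passed toward replicate 1 and 1.01% toward replicate 2, the 5 red cell members with enough counts were all called toward replicate 1 and the 4 muscle members were not called.

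The 5 called red cell members kept close to the same ratio, although the paired hemoglobin genes share sequence and are not fully separate measurements. Hba-a1 was 1.86-fold higher in replicate 1 (1.82 to 1.898), Hba-a2 1.87-fold (1.82 to 1.91), Hbb-bs 1.896-fold (1.857 to 1.935) and Alas2 1.94-fold (1.74 to 2.17). These 4 intervals overlapped one another. That of Hbb-bt lay above those of the other 3 hemoglobin genes, just above that of Hbb-bs, and overlapped that of Alas2. The intervals do not cover error in dividing reads between paired genes. Summed over the 6 red cell members, replicate 1 was higher by 1.88-fold (1.86 to 1.91), and the sum took 1.17% of TPM in replicate 1 and 0.632% in replicate 2. Slc4a1 was 6.75-fold higher in replicate 1 by scaled counts (3.31 to 15.9), but 3.39-fold by TPM and 2.36-fold by TPM of the second quantification. It passed the rule when the summed count required was lowered to 50. Alas1 and Fech were lower in replicate 2 by log2 ratios of -0.12 each, Alas1 with an interval of -0.21 to -0.02 and Fech with one of -0.22 to -0.02. The median log2 ratio over all tested genes was 0.01, that of the 5 tested red cell members -0.92 and that of the 4 muscle members -0.04. In a bulk library, fewer cells of a type and less RNA per cell cannot be told apart.

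**Figure D3:**
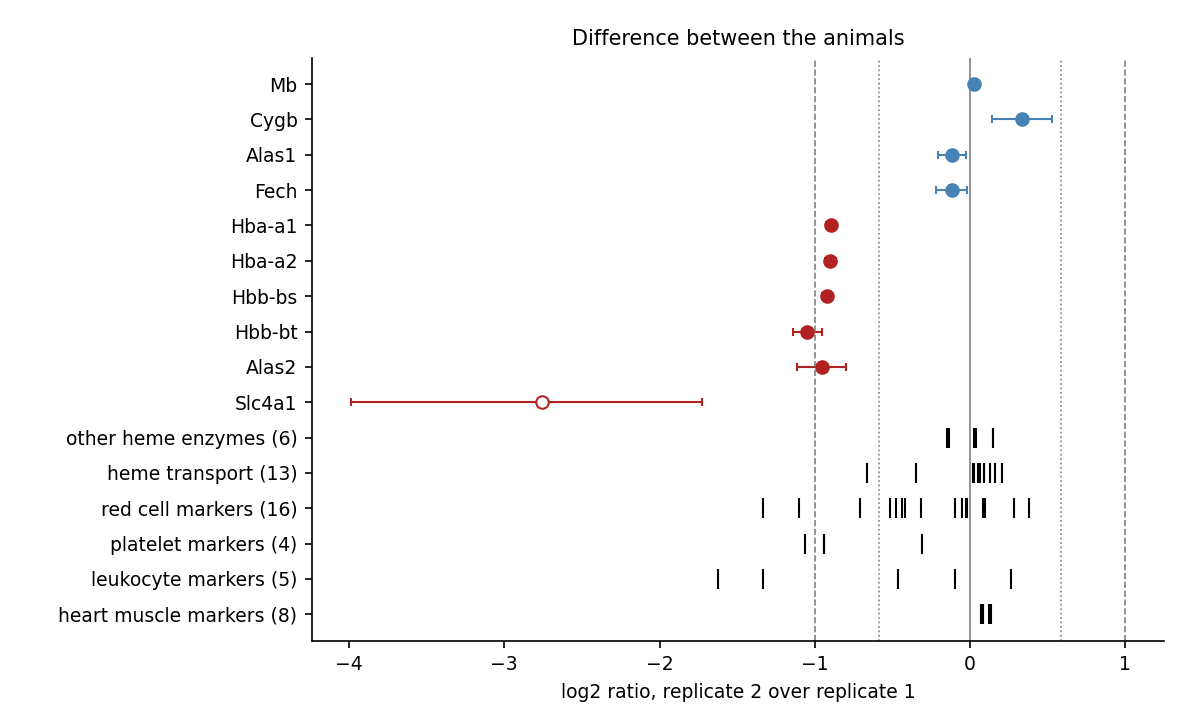
Log2 ratio of replicate 2 over replicate 1 after TMM scaling, with counting intervals that leave 0.1% outside for muscle members (blue) and red cell members (red, Slc4a1 open because it had under 200 summed counts). Black ticks are single genes of each list with 200 or more summed counts and not members, dashed lines mark 2-fold and dotted lines 1.5-fold. The 4 hemoglobins and Alas2 lie between -0.90 and -1.05, and the muscle members between -0.12 and 0.33.

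Set against myoglobin, the red cell members together were higher in 1 heart and lower in the other. The 6 red cell members summed to 1.54 times the TPM of Mb in replicate 1 and to 0.801 times in replicate 2. The log2 ratios were 0.62 and -0.32, a difference of 0.94. In the second quantification they were 0.81 and -0.11. By expected counts, not corrected for length, Mb was higher in both libraries, at log2 ratios of -0.08 and -1.01. Mb itself stood at 7586 and 7887 TPM in the same libraries.

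Other genes of red cells were more often higher in replicate 1, but most were not called. Of 32 red cell markers that are not members, 31 were found (Ahsp was not analysed here) and 16 had enough counts. Of these 16, 2 were called 2-fold higher in replicate 1, against 0.858% of all tested genes. Tent5c (2030 and 910 counts) was among them. At 1.5-fold, which 2.52% of all tested genes passed in that direction, Ube2l6 (665 and 392) was called as well. Among the 16, 12 were higher in replicate 1, against 46.1% of all tested genes. For 6 the counting interval excluded 1 in that direction, against 9.11% of all tested genes. The list was chosen with earlier results of these data known, so these shares describe it and are not a test. The median log2 ratio of the 16 was -0.21. The summed level of the list was 366 TPM in replicate 1 and 327 in replicate 2, and 223 and 186 TPM without Ank1. The highest of the list by TPM were Ank1 (143 and 141 TPM), Bnip3l (68.4 and 58.0), Sptb (32.0 and 35.0) and Mkrn1 (23.7 and 17.5), and none of them was called. Ank1, ankyrin, and Sptb, spectrin, are also membrane skeleton genes of muscle. Of the 31 found, 16 reached 1 TPM in both libraries, among them Tfrc (17.97 and 15.95 TPM). Some genes of the list were at or near 0, and they do not stand for the list. Tfrc and these genes were named after their values were seen. The transcription factor genes Gata1 (4 and 1 counts) and Klf1 (1 and 0), the membrane genes Epb42 (8 and 0) and Rhag (3 and 1), and Car1 (1 and 0) were at most at 0.22 TPM.

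Some markers of other blood cells were also higher in replicate 1. The 10 platelet markers summed to 31.7 TPM in replicate 1 and 18.5 in replicate 2. All 4 with enough counts were higher in replicate 1, against 46.1% of all tested genes, and for 3 of the 4 the counting interval excluded 1, against 9.11% of all tested genes in that direction. Of the 4, 1 was called, the integrin gene Itga2b (197 and 91 counts), against 0.858% of all tested genes toward replicate 1. Its ratio by scaled counts was 2.09-fold (1.38 to 3.23). Its TPM differed by less, at 2.50 and 1.54, and at 2.12 and 1.19 in the second quantification. The highest were Pf4 (12.8 and 9.11 TPM), Ppbp (9.44 and 5.02), Tubb1 (3.76 and 2.01) and Itga2b (2.50 and 1.54). Gp1bb had 22.85 and 0 counts, too few for the rule. The 15 leukocyte markers summed to 127 and 56.8 TPM, of which lysozyme Lyz2 alone gave 88.2 and 29.2, and to 38.6 and 27.6 TPM without it. Of the 5 with enough counts 4 were higher in replicate 1, with intervals that excluded 1 for 2. These 2 were called, Lyz2 (3731.64 and 1167.51 counts) and the pan-leukocyte gene Ptprc (382 and 146), against the same 0.858% of all tested genes. The macrophage genes Csf1r (10.1 and 9.70 TPM) and C1qa (8.22 and 10.1) and the immunoglobulin gene Ighm (4.31 and 3.15) were not called. Ncr1 had 4 and 0 counts, also too few for the rule. Gp1bb and Ncr1 were named for their value of 0 in replicate 2. Both lists were chosen with earlier results of these data known, so their shares are a description and not a test. The part of blood left in the tissue in these differences was not tested.

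Among 6324 protein-coding genes with 1000 or more summed counts, 19 lay within 0.1 of the log2 ratio of the summed red cell members, -0.91. The nearest 5 were Klf4 (1373 and 703 counts, -0.91), Eln (1037 and 538, -0.89), Ctla2a (661.89 and 344.92, -0.89), Zbtb16 (7255 and 3640, -0.94) and Klf2 (1316 and 660, -0.94). Likeness here is the difference of 1 ratio between 2 libraries and says nothing of shared function.

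All enzymes of heme synthesis were expressed, with the opening and closing steps the highest by TPM. All 9 genes reached 1 TPM in both libraries. In pathway order, the means of those described here were 148 ± 7.33 TPM for Alas1 and 34.2 ± 13.9 for Alas2, which catalyse the same opening step, and 33.0 ± 2.92 for Alad, which joins their product into porphobilinogen. Uros, which closes the ring, was at 8.32 ± 0.827 TPM, and Urod, a decarboxylase, at 32.6 ± 3.96. The mitochondrial oxidases Cpox and Ppox were at 13.9 ± 0.70 and 4.17 ± 0.0141 TPM, the latter the lowest of the 9. Fech closed the pathway at 80.9 ± 4.91 TPM. Of the 9 genes, Alas2 was called at 1.5-fold toward replicate 1, against 2.52% of all tested genes, and none at 2-fold. The median log2 ratio of the 6 enzymes that are not members was 0.03.

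Alas1 (ENSMUSG00000032786.16, chromosome 9, 106233455 to 106248654, minus strand) had 5707 and 5076 counts, or 154 and 143 TPM. Fech (ENSMUSG00000024588.9, chromosome 18, 64452914 to 64490251, minus strand) had 4765 and 4229 counts, or 84.3 and 77.4 TPM. The second quantification gave 147 and 133 TPM for Alas1 and 95.8 and 79.6 for Fech. Alas1 exceeded Alas2 by 3.48-fold in replicate 1 and 5.88-fold in replicate 2 by TPM. A level that divides the counts by the length of all annotated exons of a gene changed this. It put Alas1 at 22.0 and 20.6 counts per kilobase, scaled to library size, and Alas2 at 26.6 and 13.9, so that Alas2 was the higher in replicate 1. Fech went from rank 2 of 9 by TPM to rank 5 on that scale, at 8.19 and 7.64. The log2 excess of Alas1 over the median of the 6 other enzymes was 3.30 ± 0.0716 by TPM and 2.07 per exon length, and that of Fech 2.43 ± 0.0881 and 0.64. This alternative was added after the data had been seen.

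**Figure D4:**
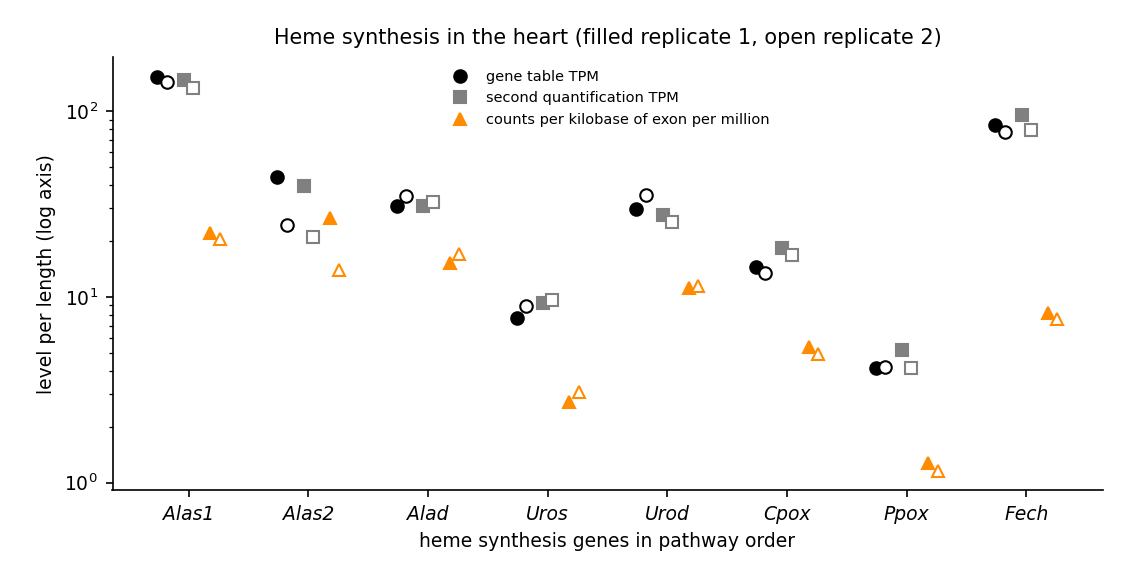
Heme synthesis genes in pathway order (horizontal, 8 of the 9) with their level on a log axis in replicate 1 (filled) and replicate 2 (open), as TPM of the gene tables (black circles), TPM of the second quantification (grey squares) and expected counts per kilobase of all annotated exons, scaled to library size (orange triangles). Alas1 and Fech are the highest by both TPM scales, and Fech has rank 5 of 9 per exon length.

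Most reads of Alas1 were assigned to annotated transcripts without its full coding sequence. Alas1-211, a 460-base fragment annotated as protein-coding with 352 coding bases, held 50.2 and 50.5% of the gene's TPM but 16.9 and 16.8% of its expected counts. Alas1-206, annotated as a processed transcript without a coding sequence, held 47.8 and 47.2% of TPM and 80.7 and 78.9% of counts. The 3 transcripts that carry the coding sequence of 1923 or 1926 bases held 0.560 and 1.62% together. The second quantification placed 50.6 and 51.3% on Alas1-211, 43.5 and 42.3% on Alas1-206 and 4.91 and 4.40% on the 3 full transcripts. Of the 31-base words of Alas1-211, 1.16% are absent from the gene's other transcripts, and of those of Alas1-206 4.27%. A transcript share of these genes thus rests on few distinguishing bases.

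For Fech, the coding transcript Fech-201 held the highest mean share in both quantifications, with 30.9 and 34.7% by the deposited shares and 43.9 and 47.6% by the second quantification, although none of its 31-base words is absent from the others. The remainder differed by quantification. Fech-207, annotated for nonsense-mediated decay, held 32.7 and 28.1% against 3.77 and 4.07%, so that by the deposited shares it stood above Fech-201 in replicate 1. Fech-213 held 23.5 and 23.95% against 0%, and Fech-215, also annotated for nonsense-mediated decay, 0 and 1.09% against 29.5 and 28.7%. Among the 8 members with more than 1 annotated transcript, the leading transcript was the same in both libraries and both quantifications for 6, the exceptions being Fech and the thinly read Slc4a1. A transcript held over 50% in both libraries for 5 of the 8 in either quantification.

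**Figure D5:**
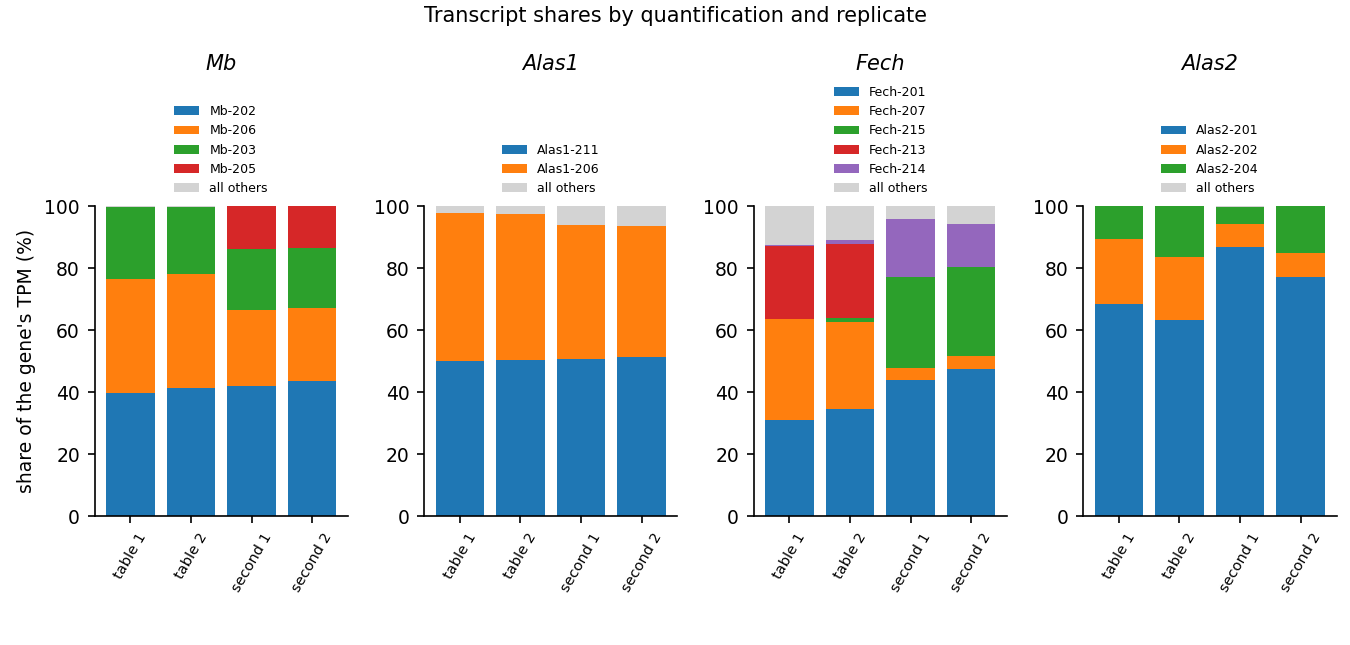
Share of each gene's TPM (percent, vertical) held by its transcripts in replicates 1 and 2, from the deposited shares (table) and from the second quantification (second), for Mb, Alas1, Fech and Alas2. Transcripts that reach 10% in any column are coloured and all others are grey. The columns of the 2 animals are closest for Mb and Alas1. They are farthest apart for Alas2, where Alas2-201 held 86.9 and 77.2% in the second quantification. The Fech columns differ most between quantifications.

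Genes that move heme and its precursors were expressed at moderate levels. All 14 of the transport and support list reached 1 TPM in both libraries, led by Tmem14c, a porphyrinogen carrier (59.1 and 61.1 TPM), Clpx, which activates ALAS (34.4 and 36.5), the heme transporter Slc48a1 (26.7 and 26.5) and the heme-binding Hebp1 (20.0 and 21.6). Of the 13 with enough counts none was called at 2-fold. Over all tested genes 2.52% passed 1.5-fold toward replicate 1. At 1.5-fold the mitochondrial iron importer Slc25a37, mitoferrin-1, which is most active in erythroid cells, was called toward replicate 1 (1365.55 and 831.95 counts, 1.58-fold, 1.37 to 1.83). Its relative Slc25a28, mitoferrin-2, had 365 and 385 counts (named after its values were seen). The median log2 ratio of the list was 0.06. The highest heme breakdown gene was the constitutive oxygenase Hmox2, at 27.4 and 27.5 TPM, against 3.03 and 3.05 TPM for the inducible Hmox1, a 9.04-fold and 9.03-fold excess. The biliverdin reductases Blvra (5.40 and 6.04 TPM) and Blvrb (9.65 and 10.2) lay between them. None of these 4 genes was called.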

How the data were processed

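Total RNA of 2 hearts was analysed from the tables as deposited by the authors. The listings that came with each deposited library name mm10 and GENCODE M21 for all tables. Aligner and tool versions were not given in the sources used here. Per the file headers, the gene and transcript tables hold expected counts, TPM, FPKM and, for transcripts, the percent share of each in its gene, in the column order RSEM writes. The second quantification holds estimated counts and TPM in the column order kallisto writes, per the file headers, and was summed over the transcripts of a gene. Its effective lengths are a median of 249 and 248 bases below the transcript lengths, against 100 in the RSEM-layout tables. Expected counts were rounded before ratios. The 26248 rows with numeric identifiers, with 1 and 0 counts, were left out. Chi-square between the libraries was 15.4 per degree of freedom over 17075 genes, so they are separate libraries, although nothing beyond the animal numbers shows separate animals.

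The members and gene lists were chosen with earlier results of these data known. Named were all 10 members, listed heme synthesis, globin and heme breakdown genes with counts, up to 4 genes of every other list by mean TPM and those called as differing, and the 5 genes nearest in ratio. The values of 3 listed genes are not reported here. Alternatives were DESeq2 size factors, total and spike-in scaling, lower count minimums, a 1.5-fold threshold, the second quantification, FPKM over Gapdh, TPM over protein-coding genes, a pseudocount of 1 TPM and leaving out each library. Ratios were tested on simulated data. Work was done in Python 3.11.15 (pandas 2.3.3, numpy 2.4.6, scipy 1.17.1, matplotlib 3.10.9) and R 4.3.3 (edgeR 4.0.16 for TMM, DESeq2 1.42.0).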

Additional observations from a re-analysis of the deposited data

How the results depend on the processing

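No paired analysis was possible because there is 1 group. The directions of the single members between the animals held under the alternatives, except for Mb, which stood within 2% between the animals by TMM-scaled counts. Its log2 ratio turned from 0.03 to -0.02 with spike-in scaling. By TPM of the second quantification Mb was also higher in replicate 1, at 8283 and 8064. Hbb-bt was called under each alternative. The number of members called was 2 with spike-in scaling (Alas2 added), 2 with a summed count of 50 or more and 2 with no filter (Slc4a1 added both times), and 5 at 1.5-fold, where the summed red cell members (-0.91) also passed. Genes called over the whole table numbered 314 with the lower minimum, 470 with no filter and 387 at 1.5-fold, against 118. The red cell members over Mb turned from 0.15 to -0.55 (log2) by expected counts, which carry no length correction, and ranged from -0.32 without replicate 1 to 0.62 without replicate 2. Their part of TPM ranged from 0.632 to 1.17% when a library was left out, and was 2.49% over nuclear protein-coding genes, whose total is smaller. The log2 excess of Alas1 over the other heme enzymes was 3.08 in the second quantification, 3.22 with a pseudocount of 1 TPM and 2.07 per exon length, and 3.25 to 3.36 leaving out a library. That of Fech was 0.64 per exon length and 2.37 to 2.49 leaving out a library. The cause of these differences in heme enzymes was not tested. FPKM differs from TPM by a constant in each library, so ratios to Gapdh cannot change with it. Depth limits Slc4a1 and the minor globins.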

Other observations

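Genes of other heme proteins and of the cytochrome b5 reductases, 7 in all, were read at similar levels in both hearts. All 7 reached 1 TPM in both libraries, none was called at 2-fold or 1.5-fold, and the median log2 ratio was 0.03. Cyc1, a subunit of respiratory complex III, was at 418 and 439 TPM, the catalase gene Cat at 105 and 111, Cyb5a, cytochrome b5, at 59.9 and 62.9, and Cycs, cytochrome c, at 59.95 and 61.2. The second quantification put Cycs at 277 and 263 TPM, 4.45 times as high on average, and Cyc1 at 630 and 629, 1.47 times as high. Cat was at 91.4 and 90.5 TPM there and Cyb5a at 60.4 and 60.6. The cause was not tested.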
